A study of Mus musculus with 8 samples.

Results

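The nuclear genes for the proteins of the mitochondrial ribosome were followed in RNA sequencing of whole testis from mice labelled Tmem232-/- and Tmem232+/+. Members were all rows of the deposited gene table whose symbol begins with Mrpl or Mrps followed by a digit, which gave 78 of 19906 genes. Of these, 49 carry a large subunit symbol (Mrpl) and 29 a small subunit symbol (Mrps). Each genotype had 4 mice aged 2 months, with 1 testis library per mouse and no further treatment. The Tmem232-/- line was made by CRISPR-Cas9 deletion of a fragment of Tmem232 in C57BL/6 mice and served to ask how testis transcripts differ without this testis-enriched transmembrane protein. The Tmem232+/+ mice were the wild-type controls.

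Mitochondria keep their own ribosome, which makes the few oxidative phosphorylation subunits that mitochondrial DNA encodes. Its RNAs come from mitochondrial DNA, but all of its proteins are encoded in the nucleus, made on cytosolic ribosomes and imported. Some of them descend from bacterial ribosomal proteins and others are found in mitochondria alone. In the testis, germ cells remodel their mitochondria through meiosis, and in spermatids these line up as the sheath of the sperm midpiece.

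The deposited counts summed to between 15428421 and 16350871 per library. Tmem232 itself was counted at 148, 132, 123 and 122 CPM (counts scaled to a library of 1000000) in replicates 1 to 4 labelled Tmem232-/- and at 111, 106, 108 and 110 in those labelled Tmem232+/+, so it was higher in the former (log2 fold change 0.27, SE 0.0721, edgeR adjusted p = 0.0335). The counts cover the whole gene, exons outside the deletion included, and did not verify the genotype labels, so groups are named here by their label. Markers of other stages moved with the label. The summed CPM of 6 elongating spermatid markers was 574 to 1137 in the libraries labelled Tmem232-/- and 111 to 240 in the others, with 6 of 6 higher, and 5 of 6 round spermatid markers were higher (646 to 796 against 335 to 464). The elongating spermatid sum was small in the libraries labelled Tmem232+/+, where the member Mrpl39 alone was at 188 to 227 CPM. Of 6 spermatogonial markers 2 were lower (185 to 203 against 225 to 252), as were 2 of 4 peritubular myoid markers (191 to 228 against 242 to 285). No marker passed among 6 spermatocyte, 6 Sertoli cell, 6 Leydig cell, 4 macrophage, 4 endothelial or 3 red blood cell genes, and no marker was at 0 in any library. The part of cell composition in the values below was not tested, and in whole testis fewer cells of a type and less RNA per cell cannot be told apart.

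Promoter letters, which the choice by symbol did not use, were described next. Of the 78, 69 had a promoter in the RefSeq table for GRCm38.p6, taken as 250 bases before to 50 bases after the start. Letters of the ETS family site (CCGGAAG, both strands) stood in 25 of the 69, or 36.2%, against 15.8% of the 12522 promoters of tested genes and 9.12% of all 27025 promoters. The YY1 letters (AAGATGGCG) stood in 8 members, or 11.6%, against 2.69% and 1.49%. The NRF1 letters (GCATGCGC), which name the factor best known for genes of mitochondrial respiration, also stood in 8, or 11.6%, against 4.89% and 2.8%. At least 1 of these 3 was present in 35 members, or 50.7%, against 21.7% and 12.5%, and the remaining 34 members held none of them. Against the promoters of tested genes and all promoters in turn, CCAAT stood in 39.1% of members, 38.9% and 37.9%, and the CRE letters TGACGTCA in 2.9%, 2.95% and 1.88%. TATAAA stood in 5.8% of members, 7.62% and 14.2%, and the GC box GGGCGG in 49.3%, 58.4% and 35.9%. No test of these shares was run. A match is a description of the letters and not evidence of binding.

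The windows below are shown because they hold such letters in both members called lower in the limma fit to FPKM (Mrps26, Mrpl34), in the member with the highest CPM (Mrpl39), in a member with one of the largest fold changes (Mrpl32) and in the 3 paralogs of bacterial S18 (Mrps18a, Mrps18b, Mrps18c). Each is 60 bases of GRCm38.p6 written 5′ to 3′ on the strand of the gene, and capitals mark the ETS letters, on either strand, or the NRF1 letters, which in Mrpl39 match on both strands and overlap. The start is that of the RefSeq promoter entry used for each gene. It can differ from the start in the deposited gene coordinates, by which the windows of Mrpl39, Mrpl34 and Mrps18a lie inside the gene.
Mrps26 (chr2:130563697-130563756, plus strand, ETS 14 bases before the start): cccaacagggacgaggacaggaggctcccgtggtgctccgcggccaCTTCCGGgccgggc
Mrpl34 (chr8:71464863-71464922, plus strand, ETS 37 bases before the start): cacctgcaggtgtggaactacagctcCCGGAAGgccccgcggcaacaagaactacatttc
Mrpl39 (chr16:84735334-84735393, minus strand, NRF1 123 bases before the start): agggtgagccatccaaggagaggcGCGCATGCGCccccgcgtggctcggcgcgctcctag
Mrpl32 (chr13:14613038-14613097, minus strand, NRF1 22 bases before the start): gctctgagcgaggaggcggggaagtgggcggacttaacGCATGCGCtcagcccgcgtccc
Mrps18a (chr17:46110944-46111003, plus strand, ETS 26 bases before the start): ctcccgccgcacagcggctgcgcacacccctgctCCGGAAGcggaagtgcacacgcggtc
Mrps18b (chr17:35916630-35916689, minus strand, NRF1 223 bases before the start): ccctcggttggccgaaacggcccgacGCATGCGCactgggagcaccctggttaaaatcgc
Mrps18c (chr5:100798577-100798636, plus strand, ETS 156 bases before the start): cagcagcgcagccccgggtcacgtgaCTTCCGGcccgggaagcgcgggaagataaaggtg
None of the 3 kinds of letters was found in the promoters of Mrpl12, Mrpl14, Mrpl24, Mrpl45, Mrps6, Mrps7 and Mrps36.

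All 78 members were expressed in testis and all passed the low-count filter. Their lowest count in any library was 64 and the highest was 3591. Levels between genes were compared as FPKM, which also divides by transcript length. The mean over the 8 libraries ran from 3.83 (Mrpl19) to 157 (Mrpl24), a 41-fold span with a median of 32.1. Although the proteins meet in 1 particle, their transcripts were therefore far from equal per length.

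Mrpl24, the counterpart of a bacterial protein that joins early in large subunit assembly, had the highest level, at 153 ± 19.1 FPKM (SD, n = 4) with the label Tmem232-/- against 161 ± 24 with the label Tmem232+/+. Mrpl54, a protein specific to mitochondria, followed at 139 ± 22.5 against 152 ± 26.8 FPKM. Mrpl39, which resembles part of a threonyl-tRNA synthetase, was at 125 ± 4.87 against 126 ± 10.6 FPKM. Mrpl20, the counterpart of bacterial L20, was at 120 ± 10.8 against 123 ± 14.1 FPKM. Mrpl52, another protein specific to mitochondria, was at 84 ± 10.9 against 103 ± 16.3 FPKM. Among the first 4, neighbours in this order differed by less than the larger of their SDs in both groups, while Mrpl52 lay below Mrpl20 by more than the SD of either. At the lower end stood 3 counterparts of bacterial large subunit proteins. Mrpl15 was at 9.13 ± 1.06 against 10 ± 0.845 FPKM, Mrpl17 at 4.67 ± 0.604 against 5.44 ± 0.442, and Mrpl19 at 3.47 ± 0.375 against 4.18 ± 0.523, each step being larger than the SDs on either side. Mrpl24 overlaps Rrnad1 and Mrpl19 overlaps Gcfc2 on the other strand, and Mrpl15, Mrpl19, Mrpl24 and Mrpl39 are among 9 members whose deposited counts were not all whole (off by more than 0.005), so their levels are the less certain. The highest library exceeded the lowest by a median of 1.38-fold over members, from 1.11-fold to 2.29-fold.

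**Figure D1:**
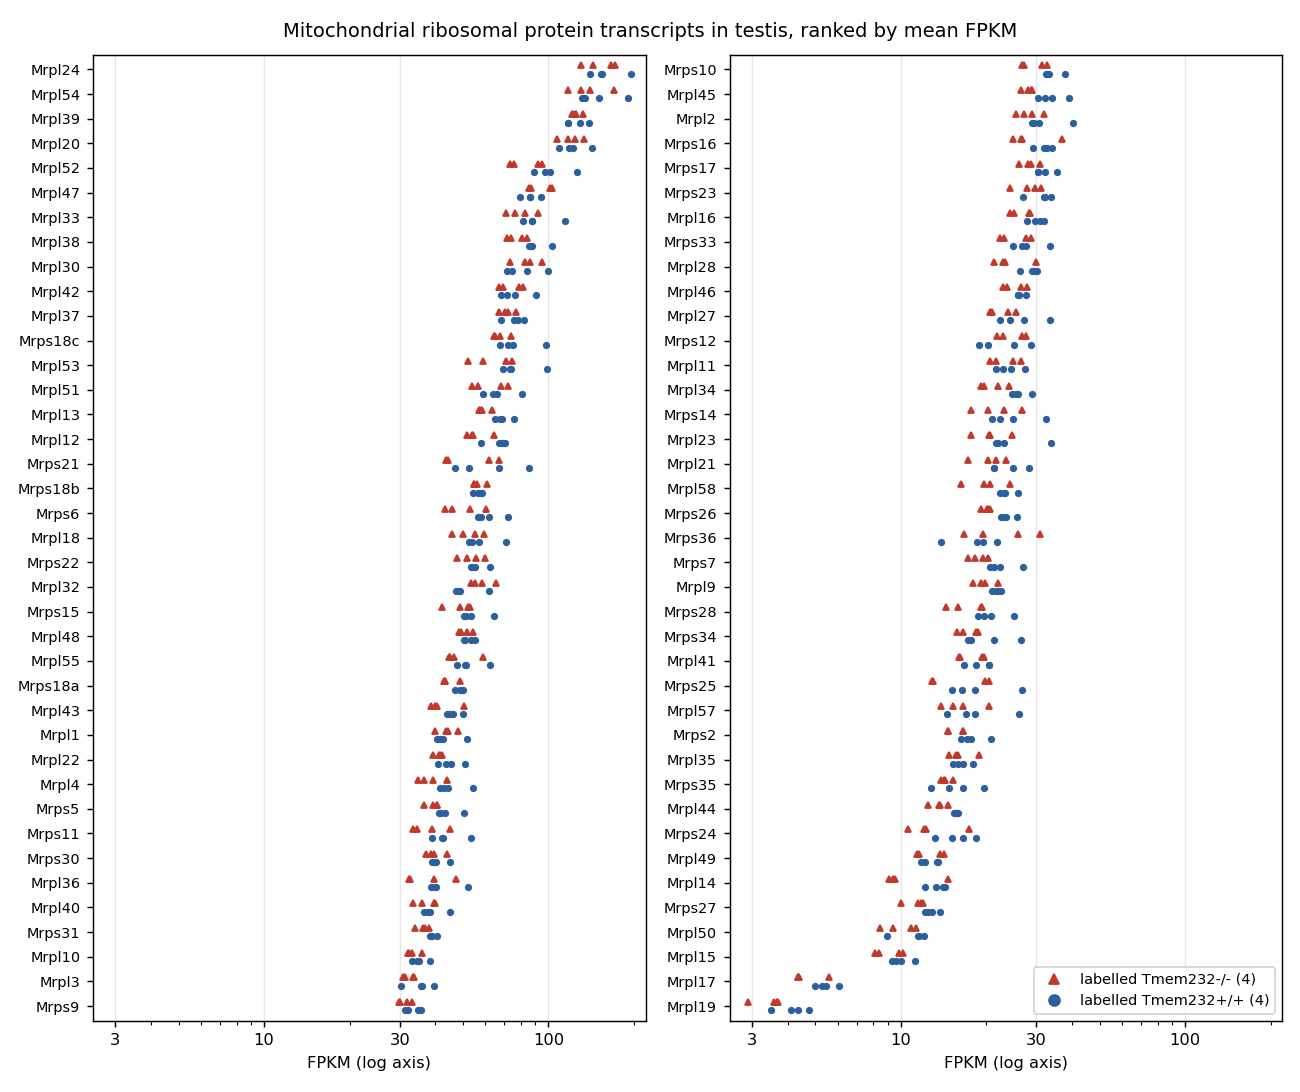
FPKM of each of the 78 members on a log axis, ranked by the mean of 8 libraries, with the 4 libraries labelled Tmem232-/- as triangles and the 4 labelled Tmem232+/+ as circles. Levels fall from a mean of 157 for Mrpl24 to 3.83 for Mrpl19, and for most members the symbols of both labels overlap.

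No member passed the test in either direction. At an adjusted p under 0.05 (edgeR quasi-likelihood test, Benjamini-Hochberg over 15787 genes), 1633 genes (10.3%) were higher and 230 (1.46%) were lower in the libraries labelled Tmem232-/-, and 0 of the 78 members were among either. At an unadjusted p under 0.05, 0 members were higher beside 14.6% of all tested genes, and 8 members (10.3%) were lower beside 10.5%. DESeq2 called 0 members after adjustment beside 11.5% of genes higher and 1.43% lower, and 1 member was lower at an unadjusted p under 0.05 beside 6.32%. The counts for limma-voom were 0 beside 10.3% higher and 1.47% lower, and 7 members lower before adjustment beside 10.4%. A limma fit to log2(FPKM + 1) called 2 members lower (2.56%), Mrpl34 and Mrps26, beside 2.95% of genes, with 20 (25.6%) lower at an unadjusted p under 0.05 beside 15.1%. At a fold change of 2 or more with an unadjusted edgeR p under 0.05, 0 members were higher beside 5.48% of genes and 0 were lower beside 0.114%. The study applied these cut-offs with DESeq2 and does not say whether its p was adjusted.

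The fold changes of the members were small, and the data bound them. Their log2 fold changes lay between -0.27 and 0.37 with SEs of 0.0653 to 0.198. All 78 of the 95% intervals lay within a fold change of 2, and 74 lay within 1.5, with outermost bounds of -0.64 and 0.81 on the log2 scale. A log2 fold change of at least 0.2 in either direction was seen in 18 members (23.1%) beside 36.2% of tested genes, while 34.6% of members and 35.5% of tested genes were under 0.1. The median SE of the members was 0.0997 and that of all tested genes 0.113.

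**Figure D2:**
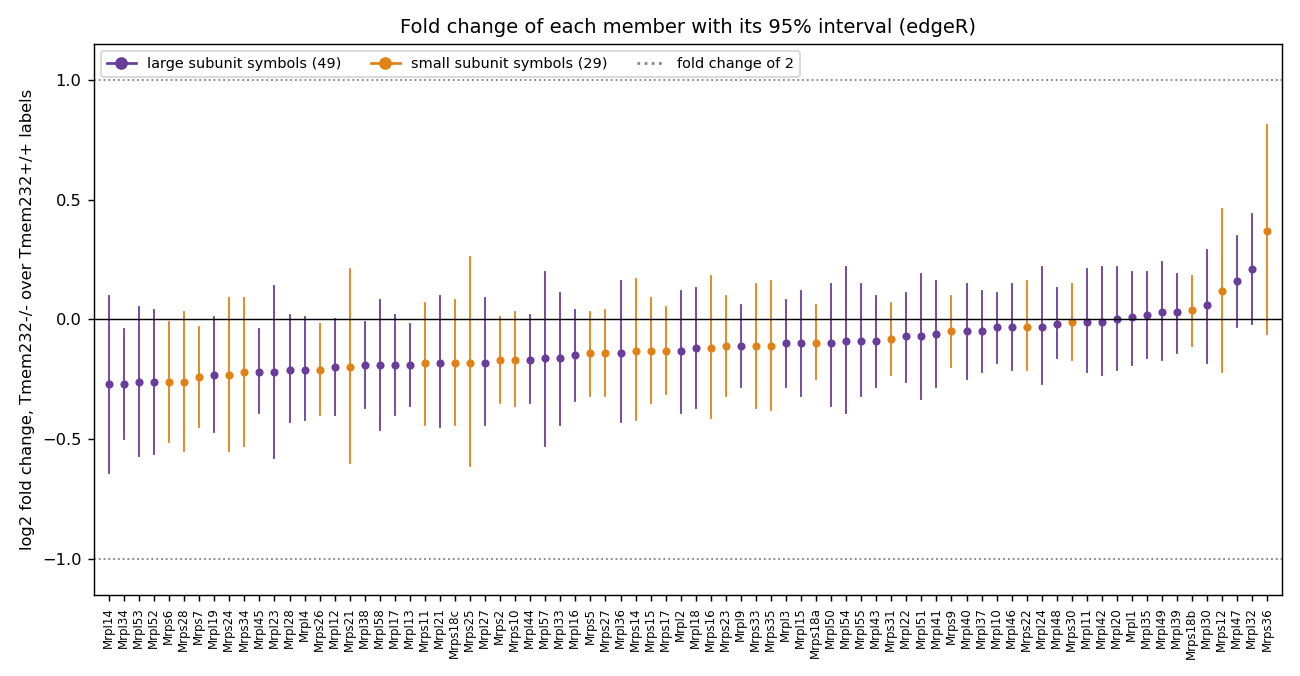
log2 fold change of each member, labelled Tmem232-/- over labelled Tmem232+/+, as points with 95% intervals from edgeR, ordered by value and coloured by subunit symbol. Points run from -0.27 to 0.37, 67 of 78 lie below 0, and every interval stays inside the dotted lines at a fold change of 2.

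The direction leaned to lower values. The log2 fold change was below 0 for 67 of the 78 members (85.9%), beside 60.8% of tested genes, and its median was -0.12 beside -0.054 for all tested genes. This lean rested on replicate 3 labelled Tmem232+/+. That library was the highest of the 8 for 52 members and the highest of its group for 59, whereas it was the highest of its group for 36% of tested genes. It was the lowest of its group for 5 members and for 35.4% of tested genes. Without it, 45 members lay below 0 beside 55.3% of tested genes, and the median was -0.026 for the members and -0.026 for all tested genes. Without any other single library, 60 to 71 members lay below 0, with medians from -0.17 to -0.08.

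**Figure D3:**
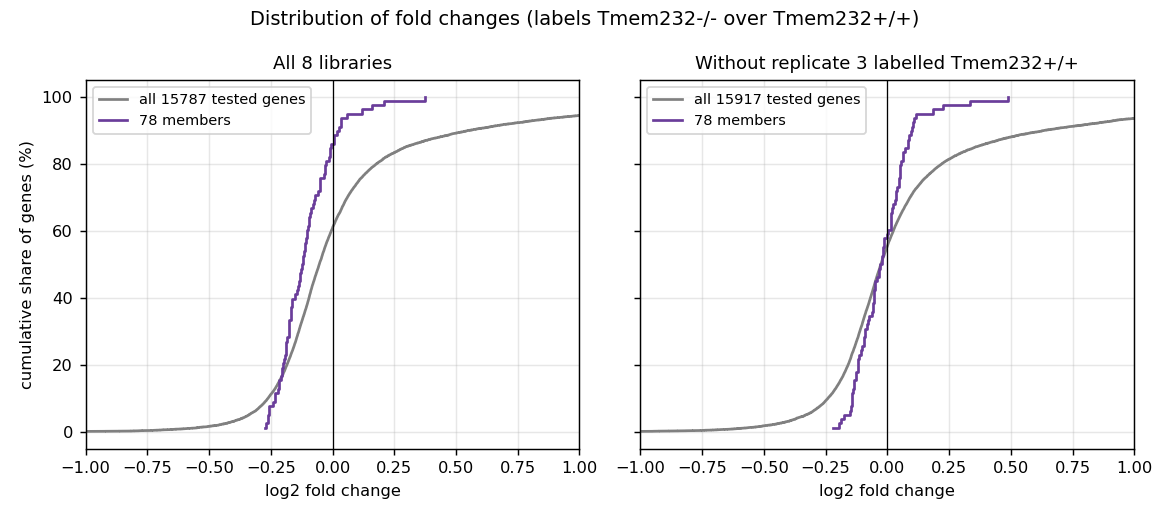
Cumulative share of genes against log2 fold change for the 78 members and all tested genes, with all 8 libraries on the left and without replicate 3 labelled Tmem232+/+ on the right. The members' median moves from -0.12 to -0.026, where it meets that of all tested genes, and in both panels the members span a narrower range.

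The summed level showed the same libraries standing out. The members together took 3207, 2814, 2858 and 3248 CPM in replicates 1 to 4 labelled Tmem232-/- and 3240, 2951, 3606 and 3059 CPM in those labelled Tmem232+/+. The groups overlapped, with means of 3032 ± 228 and 3214 ± 287 CPM (SD, n = 4), and without replicate 3 the latter was 3083 ± 146 CPM. As raw counts this was 0.276% to 0.369% of a library. Within the libraries labelled Tmem232-/-, replicates 2 and 3 were each the lowest for 35 members, and replicates 4 and 1 were the highest for 37 and 31. Over all tested genes, replicates 2 and 3 were the lowest for 23.3% and 27%, and replicates 4 and 1 the highest for 29.2% and 31.6%. The summed elongating spermatid markers split the same libraries, at 1093 and 1137 CPM in replicates 1 and 4 against 832 and 574 CPM in replicates 2 and 3, and their part in the members' levels was not tested. Both larger gene groups followed similar libraries. The 77 cytosolic ribosomal protein genes summed to 15861, 14316, 14033 and 17418 CPM against 17561, 15243, 19133 and 16418 CPM, and 77 nuclear oxidative phosphorylation genes to 7528, 6956, 6833 and 8019 CPM against 8058, 7040, 8597 and 7649 CPM. In all 3 groups replicate 3 labelled Tmem232+/+ was the highest library. The smaller lists of mitochondrial gene expression were mixed in this respect. The 29 assembly and rRNA factors summed to 990, 1119, 1141 and 987 CPM against 1121, 1072, 952 and 1066 CPM, with that library the lowest. This order came from Dhx30, an RNA helicase, at 175, 337, 334 and 211 CPM against 336, 292, 147 and 280 CPM. The 28 other factors summed to 816, 782, 807 and 776 CPM against 785, 780, 805 and 786 CPM, with that library the highest of its group. It was the lowest of its group for 16 translation factors (533 CPM against 539 to 545), 20 synthetases (515 against 552 to 560) and 10 genes of mitochondrial transcription (283 against 292 to 296). In that library the summed markers of spermatogonia (252 CPM), spermatocytes (2202 CPM), round spermatids (464 CPM), elongating spermatids (240 CPM) and peritubular myoid cells (285 CPM) were also the highest of its group, those of macrophages (46.9 CPM), endothelial cells (20.5 CPM) and red blood cells (206 CPM) were the lowest, and the part of its cell composition in these sums was not tested.

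**Figure D4:**
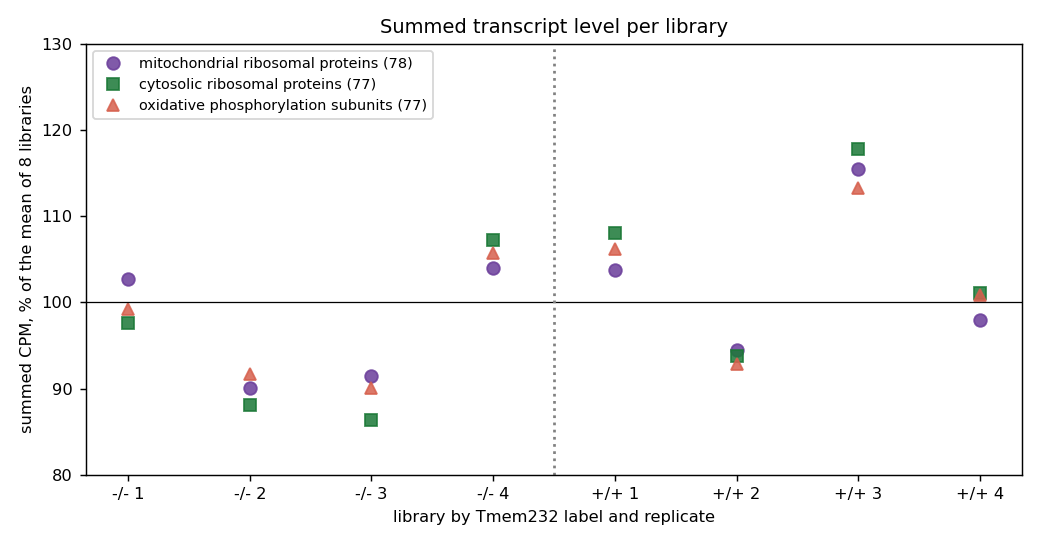
Summed CPM per library for the 78 members, 77 cytosolic ribosomal protein genes and 77 nuclear oxidative phosphorylation genes, each as a percentage of its mean over 8 libraries; the horizontal line is that mean. The points of all 3 groups are highest in replicate 3 labelled Tmem232+/+ and low in replicates 2 and 3 labelled Tmem232-/-, where the members summed to 2814 and 2858 CPM.

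In 5 members every library labelled Tmem232-/- was lower than every library labelled Tmem232+/+, and in 0 every one was higher. Over all tested genes such separation was seen for 6.88% in the lower and 11.8% in the higher direction. The 5 members are 6.41%, so with all 8 libraries their share was near that of all genes. Without replicate 4 labelled Tmem232-/-, 16 members (20.5%) were separated in the lower direction beside 13.3% of tested genes. Without replicate 3 labelled Tmem232+/+ these were 6 (7.69%) beside 13%. The 5 separated with all 8 libraries were Mrpl45, Mrps7, Mrps26, Mrpl38 and Mrps27.

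Mrpl45 (chr11:97315716-97341950), which sits at the exit of the peptide tunnel and holds the ribosome to the inner membrane, had the lowest adjusted p of all members. It was at 58.3, 52.8, 58.5 and 56.4 CPM in replicates 1 to 4 labelled Tmem232-/- and at 68.5, 59.3, 73.3 and 61.2 CPM in those labelled Tmem232+/+. The groups did not overlap, but replicates 2 and 4 labelled Tmem232+/+ came within 3 CPM of the other group. The log2 fold change was -0.22 with a 95% interval of -0.39 to -0.04 (SE 0.0796, edgeR adjusted p = 0.117), and over the alternatives the adjusted p ranged from 0.0635 to 0.405. Without replicate 3 labelled Tmem232+/+ it was -0.13.

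Mrps7 (chr11:115603652-115608037), a counterpart of bacterial S7 in the head of the small subunit, was at 23.2, 20.1, 21.4 and 23 CPM against 25, 25, 30.3 and 23.3 CPM. The highest library of one group and the lowest of the other were nearly level. Its log2 fold change was -0.24 (SE 0.0966, edgeR adjusted p = 0.149) and -0.13 without replicate 3 labelled Tmem232+/+ (adjusted p = 0.395), and its counts are uncertain because it overlaps Gga3 and Mif4gd on the other strand.

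Mrps26 (chr2:130563757-130565394), a small subunit protein specific to mitochondria, was at 15.6, 16.1, 16.4 and 15.8 CPM against 20.7, 17.3, 18.2 and 17.8 CPM. The libraries labelled Tmem232-/- lay closely together, and replicate 1 stood highest among the others. Its log2 fold change was -0.21 (SE 0.0854, edgeR adjusted p = 0.153). The FPKM values gave -0.23 with a limma adjusted p of 0.0329, the lowest p of this gene under any alternative, and without replicate 1 labelled Tmem232+/+ the value was -0.11 with an edgeR adjusted p of 0.533, the highest.

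Mrpl38 (chr11:116131817-116138868), a protein specific to mitochondria in the central protuberance of the large subunit, was at 103, 92.6, 89.9 and 103 CPM against 110, 104, 125 and 104 CPM. Replicates of both groups almost touched, and replicate 3 labelled Tmem232+/+ stood apart. Its log2 fold change was -0.19 (SE 0.0806, edgeR adjusted p = 0.175), and -0.10 without that replicate (adjusted p = 0.458). Mrps27, a pentatricopeptide repeat protein that binds RNA in the small subunit, was at 20.4, 19.7, 17.3 and 20 CPM against 22.2, 20.5, 22.3 and 20.5 CPM, with a log2 fold change of -0.14 (SE 0.0834, edgeR adjusted p = 0.327). This was -0.09 without replicate 3 of either label and -0.08 without replicate 1 labelled Tmem232+/+.

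The other members with an unadjusted p under 0.05 overlapped between the groups. Mrpl34 (chr8:71464695-71469135), a counterpart of bacterial L34, was at 9.32, 9.35, 10.4 and 11.4 CPM against 12.3, 11.3, 13.4 and 12 CPM. A single pair of libraries crossed, and the log2 fold change was -0.27 (SE 0.106, edgeR adjusted p = 0.136). On log2(FPKM + 1) its difference was -0.30 with a limma adjusted p of 0.0455.

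Mrpl13, the counterpart of bacterial L13, was at 40.1, 36.2, 35.6 and 34.9 CPM against 42.9, 38.3, 45.5 and 40.7 CPM (log2 fold change -0.19, SE 0.0779, edgeR adjusted p = 0.157), and it overlaps Mtbp on the other strand. Mrps6, the counterpart of bacterial S6, was at 33.1, 26.4, 28.1 and 36.6 CPM against 35.2, 36.2, 43.1 and 34.5 CPM (log2 fold change -0.26, SE 0.114, edgeR adjusted p = 0.185). In Mrps6 replicate 4 labelled Tmem232-/- lay above 3 libraries of the other group, and the gene shares its locus and strand with Slc5a3. Without replicate 3 labelled Tmem232+/+ Mrpl13 was -0.12 and Mrps6 -0.15.

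The rest of the extremes did not pass either. Mrpl14, a counterpart of bacterial L14 on the face that meets the small subunit, had the lowest mean CPM of all members, at 4.39, 4.21, 4.05 and 6.58 CPM against 5.92, 6.12, 6.02 and 5.16 CPM. Replicate 4 labelled Tmem232-/- was the highest of all 8 libraries and the other 3 of its group were the lowest. The log2 fold change was -0.27 (SE 0.168, edgeR adjusted p = 0.35), and without that replicate it was -0.45 with an adjusted p of 0.0453. Mrpl28, which was at 21, 21, 19.2 and 26.4 CPM against 23.9, 25.3, 25.3 and 26.5 CPM (log2 fold change -0.21, edgeR adjusted p = 0.235 with all 8 libraries), was the other member called lower in that fit, which called 2.24% of all genes lower. Mrpl14 overlaps Tmem63b on the other strand. Mrpl53, a large subunit protein specific to mitochondria, was at 34.3, 23.3, 26.5 and 32 CPM against 33.5, 29.7, 43.5 and 32.6 CPM (log2 fold change -0.26, SE 0.142, edgeR adjusted p = 0.284). It overlaps the coding gene Gm42688 on the same strand. Without replicate 3 labelled Tmem232+/+ the log2 fold change of Mrpl53 was -0.11, and without replicate 2 labelled Tmem232-/- it was -0.17.

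At the other end, Mrps36 (chr13:100735940-100744659) had the largest fold change and the widest spread. It bears a ribosomal symbol but is now known as a subunit of the 2-oxoglutarate dehydrogenase complex of the citric acid cycle. It was at 14.4, 10.6, 9.17 and 16.8 CPM against 10.8, 9.69, 11.6 and 7.37 CPM, and replicates 1 and 4 labelled Tmem232-/- lay above all others while replicates 2 and 3 lay among them. The log2 fold change was 0.37 with a 95% interval of -0.06 to 0.81 (edgeR adjusted p = 0.271), and without replicate 4 labelled Tmem232-/- it was 0.22.

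Mrpl32 (chr13:14610125-14613037), a zinc-binding counterpart of bacterial L32 that the AAA protease of the inner membrane trims before it is assembled, was at 40.1, 33.1, 32.1 and 34.6 CPM against 29.3, 27.2, 36 and 28.5 CPM. Replicate 3 labelled Tmem232+/+ was the one library of its group above 30 CPM. The log2 fold change was 0.21 (SE 0.105, edgeR adjusted p = 0.246). Without that library it was 0.33 with an adjusted p of 0.0278, the single member called higher under any alternative, in a fit that called 11.7% of all genes higher. Mrpl47, a counterpart of bacterial L29 beside the exit tunnel, was at 74.3, 60.1, 61.4 and 70.6 CPM against 61.7, 53.5, 64.3 and 59.1 CPM (log2 fold change 0.16, SE 0.0878, edgeR adjusted p = 0.291), and it overlaps Actl6a and Ndufb5 on the other strand. Without replicate 1 labelled Tmem232-/- Mrpl32 was 0.14 and Mrpl47 0.10.

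Members were also read by their place in the ribosome. Mrps18a and Mrps18b, paralogs of bacterial S18, were counted here with the large and small subunit proteins specific to mitochondria. Among 30 large subunit counterparts of bacterial proteins the median log2 fold change was -0.13 with 24 below 0, and among 21 large subunit proteins specific to mitochondria it was -0.09 with 19 below 0. The 16 small subunit counterparts of bacterial proteins had a median of -0.17 with 15 below 0, and the 10 small subunit proteins specific to mitochondria -0.11 with 9 below 0. Without replicate 3 labelled Tmem232+/+ these medians were -0.015, 0.003, -0.053 and -0.020 in the same order. The members of the L7/L12 stalk, which brings translation factors to the ribosome, had no call, and their differences from each other were not tested. The log2 fold change of Mrpl10 was -0.03 (SE 0.0664), Mrpl11 -0.01 (SE 0.0969) and Mrpl12 -0.20 (SE 0.0913, edgeR adjusted p = 0.198). Mrpl12 was at 43.5, 42.3, 40.6 and 49.6 CPM against 54.6, 43.3, 53.3 and 51.1 CPM, and replicates 1 and 4 labelled Tmem232-/- lay above replicate 2 labelled Tmem232+/+. Without replicate 1 labelled Tmem232+/+ its log2 fold change was -0.12. The signs of Mrpl10 and Mrpl11 were not stable: without replicate 3 labelled Tmem232+/+ they were 0.04 and 0.09, and with DESeq2 size factors Mrpl11 was 0.02.

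None of the 3 paralogs of bacterial S18 passed the test. Mrps18a, which lies in the large subunit, was at 31.2 ± 1.65 CPM against 33.3 ± 1.39 CPM (SD, n = 4), with a 95% interval of the log2 fold change of -0.25 to 0.06. Mrps18b, in the small subunit, was at 50.2 ± 2.4 against 49 ± 2.11 CPM and had the smallest SE of all members, 0.0653, with an interval of -0.11 to 0.18. Mrps18c, the closest to bacterial S18, was at 22.5 ± 1.43 against 25.5 ± 4.46 CPM with an interval of -0.44 to 0.08, and its log2 fold change of -0.18 was -0.02 without replicate 3 labelled Tmem232+/+. Mrps18a overlaps Rsph9 on the other strand. Mrpl58, a release factor that became a part of the large subunit and frees peptides from stalled ribosomes, was at 16, 12.7, 10.6 and 13.6 CPM against 14.9, 14, 16.3 and 15.1 CPM (log2 fold change -0.19, SE 0.122, edgeR adjusted p = 0.366), and -0.10 without replicate 3 labelled Tmem232-/-. In FPKM the paralogs stood at 46.7 for Mrps18a, 56.6 for Mrps18b and 72.9 for Mrps18c, as means of 8 libraries.

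The ribosome also holds proteins whose symbols the rule does not match. Among these, Dap3, Ptcd3, Chchd1, Aurkaip1 and Gadd45gip1 had 0 called of 5 and log2 fold changes of 0.03, -0.06, -0.14, -0.20 and -0.15. Dap3, a GTP-binding protein of the small subunit, was at 248, 245, 236 and 257 CPM against 247, 231, 255 and 237 CPM, and the groups overlapped almost fully.

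The genes around the ribosome were read against the same shares of all tested genes, 10.3% higher and 1.46% lower after adjustment and 14.6% and 10.5% before it. Of 29 factors that assemble the ribosome or modify its RNA, 1 was called higher and 0 lower, and at an unadjusted p under 0.05 these were 3 and 7. That gene was Nsun4, an RNA cytosine methyltransferase that acts with Mterf4 when the subunits join. It was at 86.5, 96.2, 85.4 and 70.5 CPM in the libraries labelled Tmem232-/- and at 38.2, 37, 42.4 and 44.5 CPM in the others. The groups lay far apart, with a log2 fold change of 1.06 (SE 0.0997, edgeR adjusted p = 4.28e-05), and the adjusted p stayed at or under 0.00104 in every alternative run. Its partner Mterf4 was at 29.4, 30.9, 30 and 30.4 CPM against 33.1, 31.2, 40 and 32.8 CPM (log2 fold change -0.18, edgeR adjusted p = 0.217).

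Of 10 genes of mitochondrial transcription and DNA maintenance, 1 was higher and 1 lower, and before adjustment 1 and 2. Tfam, which packages mitochondrial DNA and starts its transcription, was at 26.4, 21.9, 17.7 and 26.7 CPM against 15, 14, 13.2 and 15 CPM. The groups did not overlap (log2 fold change 0.70, SE 0.129, edgeR adjusted p = 0.00353), and the highest adjusted p under an alternative was 0.0137. Polrmt, the mitochondrial RNA polymerase, was at 31.9, 31.9, 31.1 and 30.5 CPM against 39.8, 37.9, 35.7 and 36.4 CPM (log2 fold change -0.26, SE 0.0667, edgeR adjusted p = 0.0269). Its call was lost without any 1 library other than replicate 3 labelled Tmem232+/+, with an adjusted p of up to 0.163, and without the low-count filter (0.0803).

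**Figure D5:**
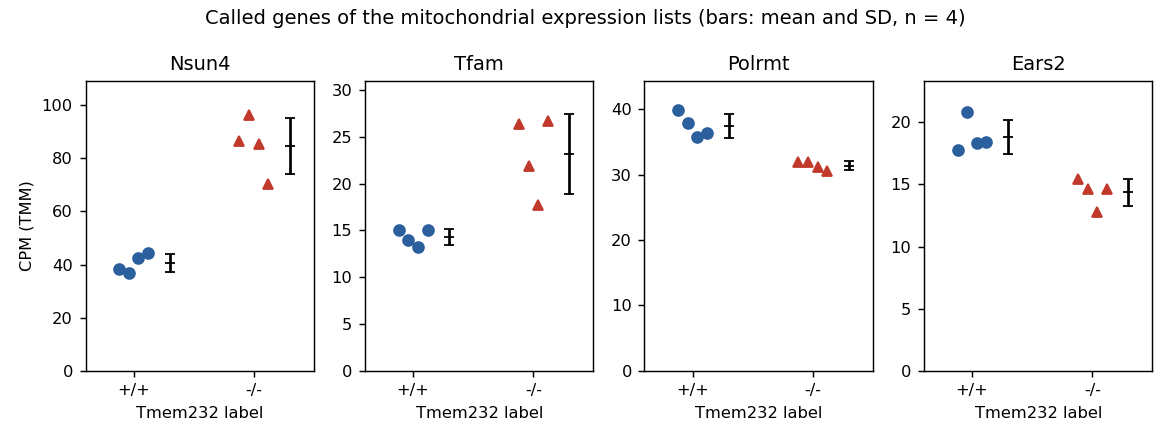
CPM in each library of the 4 called genes in the lists of assembly, transcription and tRNA charging, with circles for the label Tmem232+/+, triangles for Tmem232-/- and bars for the mean and SD of 4 libraries. Nsun4 and Tfam are higher with the label Tmem232-/- (70.5 to 96.2 and 17.7 to 26.7 CPM), and Polrmt and Ears2 are lower, without overlap in any of the 4.

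None of 16 translation factors passed in either direction. Their median log2 fold change was -0.10, and -0.063 without replicate 3 labelled Tmem232+/+. At an unadjusted p under 0.05, 1 of the 16 was higher and 3 lower by edgeR. The nearest to a call was Tsfm, which recycles the elongation factor Tu, at 5.92, 5.4, 5.69 and 7.19 CPM against 8.16, 7.51, 8.93 and 7.74 CPM. Its groups did not overlap (log2 fold change -0.42, SE 0.125, edgeR adjusted p = 0.0535). Of 20 mitochondrial aminoacyl-tRNA synthetases and amidotransferase subunits, 1 was lower and 0 higher, and before adjustment 6 and 1. Ears2, which charges tRNA with glutamate, was at 15.4, 14.6, 12.8 and 14.6 CPM against 17.8, 20.8, 18.3 and 18.4 CPM (log2 fold change -0.39, SE 0.0924, edgeR adjusted p = 0.0164). Without replicate 3 labelled Tmem232-/- its adjusted p was 0.0528, without replicate 2 labelled Tmem232+/+ it was 0.0547, on FPKM with limma it was 0.0972, and it overlaps Ubfd1 on the other strand.

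Among the proteins that the mitochondrial ribosome works beside, 1 of 77 nuclear oxidative phosphorylation genes was lower and 0 higher, with a median log2 fold change of -0.13 and 73 below 0, and before adjustment 3 were lower and 0 higher. The gene was Atp5g3, a copy of the ATP synthase c subunit, at 35, 35.3, 35.2 and 41.3 CPM against 44.9, 40.8, 47.9 and 44.8 CPM (log2 fold change -0.28, edgeR adjusted p = 0.0449). Its call held without replicate 4 labelled Tmem232-/- or replicate 2 labelled Tmem232+/+ and was lost without any other single library, with an adjusted p of up to 0.185. It was also lost with DESeq2 size factors (0.0704), with DESeq2 (0.0502), with a minimum of 10 counts (0.0517) and without a low-count filter (0.117). Of 77 cytosolic ribosomal protein genes, 1 was lower and 0 higher, with a median of -0.16 and 77 of 77 below 0, and before adjustment 12 were lower and 0 higher. That gene was Rps3, at 101, 117, 103 and 111 CPM against 145, 121, 130 and 127 CPM (log2 fold change -0.27, edgeR adjusted p = 0.0383). Its call held without replicate 2 of either label and was lost without any other single library, with an adjusted p of up to 0.233, and also with DESeq2 size factors (0.058) and without a low-count filter (0.0991). The medians of these lists without replicate 3 labelled Tmem232+/+ were -0.023 and -0.067.

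The members were spread over 17 chromosomes, with none on X or Y and the most, 11, on chromosome 11. In GENCODE M21, 18 of the 78 (23.1%) began within 1000 bases of a coding gene that starts on the other strand and points away, beside 1392 of 15222 tested coding genes (9.14%). Pairs whose starts overlap were not counted, as with the members Mrpl46 and Mrps11, which overlap on opposite strands. The nearest such pairs were Mrpl54 with Apba3 at 26 bases, and Mrps18c with Helq and Mrps34 with Eme2 at 29 bases each. Mrps12 lay 172 bases from Sars2, the mitochondrial seryl-tRNA synthetase. All 18 partners were tested, with 0 higher and 1 lower. That partner was Ska3, 49 bases from Mrpl57 and a protein of the spindle and kinetochore complex (log2 fold change -0.36, SE 0.104, edgeR adjusted p = 0.0453), while Mrpl57 was not called (log2 fold change -0.16, SE 0.167). A coding gene overlapped 23 members on the other strand and 4 on the same strand. Whether the counting used strand is not given in the sources used here and the library kit does not mark strand, so reads of these pairs cannot be told apart and their counts are uncertain.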

How the data were processed

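Total RNA of 8 testes was made into TruSeq libraries and sequenced as paired ends. Per the labels and the study's methods, the authors mapped reads to GRCm38.p6 with HISAT and Bowtie2, counted them with StringTie and featureCounts and used DESeq2. The deposited estimated counts per gene are not normalized, and 10.7% to 11.2% of values per library are not whole (off by more than 0.005), so they were rounded. FPKM, also from the authors, is scaled per kilobase and library. The log2 fold changes, p-values and q-values that the authors computed with DESeq2 before they deposited the table, and their group means, were not used.

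Genotype and replicate came from the sample labels. Genes were filtered with filterByExpr, scaled by TMM and tested with edgeR 4.0.16 (quasi-likelihood, R 4.3.3), with Benjamini-Hochberg adjustment over 15787 genes and calls at an adjusted p under 0.05. CPM are TMM-scaled. DESeq2 1.42.0, limma 3.58.1 (voom, and log2(FPKM + 1)), other scalings, filters, a block and leaving out each library were alternatives. The fit was tested on simulated data.

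The members and lists were chosen with earlier results of these data known. Named genes were any called member, the 5 highest and 3 lowest by FPKM, the 3 largest and 3 smallest fold changes, the S18 paralogs, the stalk, Mrpl45, Mrpl58, Mrps36 and called genes of the related lists. Members with an unadjusted p under 0.05 or without overlap, Mrpl28, Dap3 and the other ribosomal proteins outside the rule, Mterf4, Dhx30, Tsfm and the neighbouring genes were added after their values were seen. From the cytosolic ribosomal protein symbols, kinases and paralog genes that the letters would also match were left out. Promoters were from RefSeq (GRCm38.p6) and positions from GENCODE M21, and the deposited coordinates are used for genes. Mrpl4, Mrpl13, Mrpl15, Mrpl19, Mrpl38, Mrpl54, Mrps28, Mrps34 and Mrps35 had no promoter entry.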

Additional observations from a re-analysis of the deposited data

Results flagged for a closer look

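Within groups of 4 libraries, 1 library stood far from the other 3 in 4 of 78 comparisons among named genes, where chance gives about 3.9. These comparisons did not cover every named gene, and Chchd1 and Gadd45gip1 were outside them. Mrpl10 was at 55.3 CPM in replicate 3 labelled Tmem232+/+, and the other 3 lay between 49.3 and 49.9. Replicate 4 labelled Tmem232-/- gave the other cases among these comparisons. Mrpl14 was at 6.58 CPM there and between 4.05 and 4.39 in the rest of the group, Mrpl17 was at 35.8 CPM against 28.9 to 29.6, and Atp5g3 was at 41.3 CPM against 35 to 35.3. Outside these comparisons, Chchd1 was at 16.8 CPM in replicate 3 labelled Tmem232+/+ against 14.6 to 14.7 in the rest of its group. Gadd45gip1 was at 41.3 CPM in that library against 24.6 to 26.5.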

How the results depend on the processing

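Over 17 alternatives, the count of members called was 0 in both directions except in 3 of them. The FPKM fit called 2 lower (Mrpl34 and Mrps26), and the fits without 1 library called 0 to 2 lower and 0 to 1 higher: 2 lower, Mrpl14 and Mrpl28, without replicate 4 labelled Tmem232-/-, and 1 higher, Mrpl32, without replicate 3 labelled Tmem232+/+. The median log2 fold change of the members stayed below 0, from -0.17 to -0.03 without 1 library, at -0.10 with DESeq2 size factors and at -0.16 with library size alone, where the median of all tested genes was -0.029 and -0.087. The count of members below 0 ranged from 45 to 71 without 1 library. Separated members, 5 in the lower direction, were 10, 16 and 11 (12.8%, 20.5% and 14.1%) without replicates 1 or 4 labelled Tmem232-/- or replicate 2 labelled Tmem232+/+, beside 9.84%, 13.3% and 9.37% of tested genes, and 1 (1.28%) was separated in the higher direction without replicate 3 labelled Tmem232+/+ beside 14.3%. With the replicate block, 0 members were called and 2 were lower at an unadjusted p under 0.05. The deviations of libraries that share a replicate number correlated at -0.0606, 0.0716, -0.332 and -0.105. These values gave no sign of pairing but cannot show that the mice were unpaired, and the labels do not name pairs. Under the block Ears2, Polrmt, Atp5g3 and Rps3 had edgeR adjusted p of 0.0681, 0.135, 0.126 and 0.156. Of 28 named members, 21 kept their sign in every alternative, and the 7 others were all near 0. Without the low-count filter Mrpl24 was 0.01, Mrpl10 0.01 and Mrpl11 0.04, and Mrpl11 was 0.02 with DESeq2 and with its size factors. With library size alone Mrpl39 was -0.01 and Mrpl20 -0.03; on FPKM Mrpl39 was -0.01, Mrpl20 -0.03 and Mrps18b -0.004. Without 1 library the log2 fold change ranged from -0.10 to 0.10 for Mrpl24, from -0.19 to 0.06 for Mrpl54, from -0.02 to 0.11 for Mrpl39, from -0.05 to 0.11 for Mrpl20, from -0.05 to 0.04 for Mrpl10 and from -0.06 to 0.09 for Mrpl11. The cause of these shifts was not tested.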
